A study of Sus scrofa with 24 samples.

Results

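The effect of interleukin-1 (IL-1) was examined in porcine meniscus explants that were cultured without mechanical load, with the inner and the outer zone of the tissue pooled. The comparison held 9 of the 24 bulk RNA-seq libraries of the series. Of these, 6 came from explants given IL-1α at 0.1 ng/mL (3 of the inner and 3 of the outer zone) and 3 came from controls given none (1 of the outer zone, and 2 of number 2, of which 1 was inner and 1 outer). All were discs punched from medial menisci of pigs and kept uncompressed in parallel with the loaded explants. The study describes its porcine tissue as skeletally mature. Age in numbers, strain and genotype were not found in the sources used here.

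The libraries were selected on their names and titles, and no measured value was used to place one. The genes named below were chosen by their p in this same comparison or as members of a list, so their values describe the comparison and are no further evidence for it. A column name holds a pair of numbers. The first was deduced to be the replicate number of the sample title, and the second was read as a condition where its set of first numbers fitted 1 condition alone. Libraries are named below by treatment, zone and number, for example IL-1 inner 3. The 2 controls of number 2 are called control 2a and control 2b because their names do not show which is inner, and the third control is control outer 6. Not all unloaded controls of the series were used. Another 2 unloaded controls could have been placed only by the level of a gene, and they were left out. A further unloaded control, of the inner zone by its title, was not used either. If the deduced names were wrong, the groups would be wrong with them.

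The meniscus is a fibrocartilage. Its inner zone is rich in aggrecan and type II collagen and has no vessels, while its outer zone is fibrous, rich in type I collagen and reached by blood vessels. IL-1 binds IL1R1 and signals through MYD88 and the IRAK kinases to NF-κB, which switches on chemokines, cytokines and prostaglandin synthesis. In cartilage IL-1 is known to raise matrix-degrading proteases and to lower matrix synthesis.

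Total counts ran from 24440213 to 37270933 per library. Markers of the tissue itself (SOX9, ACAN, COL2A1, COMP, COL1A1, DCN and others) were detected in all 9 libraries. The controls were not alike, and results with and without single libraries are given below. On a principal component analysis the first component held 51.6% of the variance, with control 2a at -86.9 and control 2b at -120.3. Control outer 6 lay at 17.1, among the IL-1 libraries (-18.8 to 81.9). The lowest IL-1 libraries on this component were those of number 2, IL-1 outer 2 at -18.8 and IL-1 inner 2 at -4.6. The other IL-1 libraries lay at 30.1 to 81.9. The 2 controls poor in vessel genes are also those richest in cartilage genes, and both carry number 2. Number, zone and these differences cannot be told apart from each other among 3 controls. A number may mark an animal, since the study used 6 menisci, but the sources do not say so. If it does, control 2a and control 2b are not independent, nor are IL-1 inner 2 and IL-1 outer 2, which carry the same number. The p-values of the main test ignore this, so they would not be correct and may be too small.

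Across 13840 genes tested, 15 were higher with IL-1 and 175 were lower by edgeR's quasi-likelihood test at a Benjamini-Hochberg adjusted p under 0.05 and an absolute log2 fold change over 1. These are 0.108% and 1.26% of the genes tested. Of the 15 that rose, 14 are described below. They included a chemokine, the inducible prostaglandin synthase and an ErbB ligand. The genes that fell included cartilage collagens, cartilage matrix glycoproteins, transcription factors of the chondrocyte lineage and the Wnt inhibitors WIF1 and FRZB. For all 15 genes that rose, every IL-1 library lay above every control, as was the case for 3.34% of all genes. For 141 of the 175 that fell, every IL-1 library lay below every control, against 4.55% of all genes. The median log2 fold change of all genes was 0.03. At an unadjusted p under 0.05, 1076 of the 13840 genes were higher (7.77%) and 1538 lower, 18.9% in all, and DESeq2 called 1.75% higher and 4.15% lower. The counts of list members below stand beside these shares.

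The called genes named below had adjusted p-values between 0.0397 and 0.0483, close to the threshold, and the calls depended on single libraries. No gene was called by edgeR without control 2a, without control 2b, or without any 1 of IL-1 inner 2, IL-1 inner 4, IL-1 outer 1 and IL-1 outer 5, when 1172 to 2406 genes had an unadjusted p under 0.05. Without control outer 6 the counts were 322 higher and 633 lower, without IL-1 outer 2 they were 77 and 340, and without IL-1 inner 3 they were 8 and 60. DESeq2's Wald test on all 9 libraries gave 242 and 574. With the replicate number as a block, fixed or random, with libraries of 1 number summed, or with a zone term in the libraries of known zone, edgeR or limma called no gene in either direction, while 1812, 2671, 1900 and 205 genes had an unadjusted p under 0.05. Each of the 190 called genes that could be fitted kept its direction when any 1 library was left out.

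The chemokine AMCF-II, a neutrophil attractant of the pig that RefSeq also lists as CXCL6 (chromosome 8, 70008225 to 70010360, Sscrofa11.1), showed the largest rise among the called genes described here. Its level in CPM (read counts scaled to the library's total after trimmed-mean correction) ran from 10.8 in IL-1 outer 2 over a median of 231 to 327 in IL-1 inner 4. The controls had 2.17 CPM in control 2a, 0.274 in control 2b and 3.29 in control outer 6. The groups did not overlap, and the log2 fold change was 6.55 (SE 1.31, n = 6 against 3, edgeR adjusted p = 0.0476). Within the libraries of number 2 alone (2 against 2) the log2 fold change was 6.63, and in the libraries of other numbers (4 against 1) it was 6.03.

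Its neighbours on chromosome 8 gave similar values that missed the threshold. CXCL8 (interleukin-8, 69932646 to 69935861) ran from 7.996 CPM in IL-1 outer 2 over a median of 83.2 to 124 in IL-1 inner 4, against 1.32, 0.274 and 3.54 in control 2a, control 2b and control outer 6. Its log2 fold change was 5.27 (SE 1.16, edgeR adjusted p = 0.0551). CXCL2 (70157253 to 70159145) ran from 11.95 CPM in IL-1 inner 3 to 140 in IL-1 inner 4, against 3.11, 0.787 and 6.08, with a log2 fold change of 4.63 (SE 1.04, edgeR adjusted p = 0.0561). Both were singled out after their values were seen, and both were called by DESeq2 (adjusted p = 1.6e-05 and 5.4e-07).

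The DNA before the start of these 3 chemokine genes and of PTGS2 is shown because inflammatory genes of this kind are textbook targets of NF-κB. The letters GGNNNTTCC, the core of many NF-κB sites, were searched on both strands in the 300 bases before the RefSeq gene start, where 24.2% of 19540 protein-coding genes hold a match. Each line gives 29 bases on the strand of the gene, 5′ to 3′, with the match in capitals (Sscrofa11.1, RefSeq annotation).
AMCF-II, plus strand, chr8:70008095-70008123, 111 bases before the start: ctcagtccagGGAATTTCCcaagcatccc
CXCL8, plus strand, chr8:69932545-69932573, 82 bases before the start: tgcgtagtgtGGAATTTCCtctgacatga
CXCL2, plus strand, chr8:70157132-70157160, 102 bases before the start: cgcgcatcagGGAATTTCCctggcctggg
PTGS2, minus strand, chr9:127858889-127858917, 32 bases before the start: acgcataaaaGGAAGGTCCtctccgttag
The 3 chemokine windows hold the same 9 letters. The match before PTGS2 is to the other strand and differs from them, and a second match before CXCL2, to the other strand, is not shown. The 4 genes were picked after values were seen: of 17 genes searched (the 14 described genes that rose and the chemokines CXCL8, CXCL2 and CCL2, which did not overlap between the groups), 8 had a match and 9, CCL2 among them, had none. Matches describe the sequence only and no binding was measured.

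Of the 16 chemokines tested, AMCF-II alone was called by edgeR, 5 were higher at an unadjusted p under 0.05 and none was lower. DESeq2 called 4 higher. The median log2 fold change of the list was 2.54, or 1.98 with the 3 genes that were at 0 in all controls set at the bound that 3 counts over the group allow. CCL20, which attracts lymphocytes and dendritic cells, ran from 81.2 to 834 CPM against 109, 44.4 and 71.1, so that the groups overlapped (log2 fold change 2.52, SE 0.69, edgeR adjusted p = 0.0931). CCL2, which attracts monocytes, ran from 28.2 to 279 CPM against 5.92, 0 and 22.01 (log2 fold change 3.50, SE 1.32, edgeR adjusted p = 0.194). The lowest IL-1 library was IL-1 outer 2 or IL-1 inner 3 for all 5 chemokines named.

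**Figure D1:**
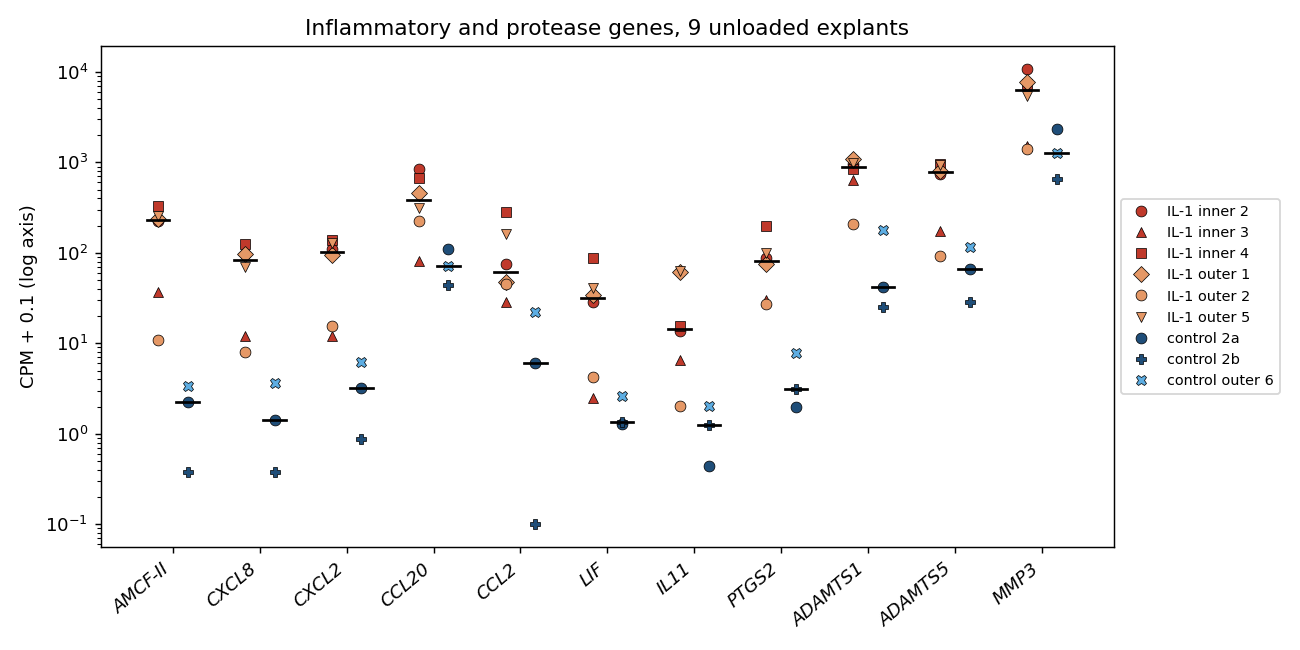
Level of 11 inflammatory and protease genes in each of the 9 libraries, in CPM with 0.1 added, on a log axis; each symbol is 1 library and the bars are group medians (6 IL-1, 3 control). AMCF-II, CXCL8, CXCL2, CCL2, IL11, PTGS2 and ADAMTS1 do not overlap between the groups, and IL-1 outer 2 and IL-1 inner 3 are the lowest IL-1 libraries for each of the 11 genes.

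PTGS2, the inducible cyclooxygenase that starts prostaglandin synthesis (chromosome 9, 127850164 to 127858866), rose. It ran from 27.3 CPM in IL-1 outer 2 over a median of 81.9 to 198 in IL-1 inner 4, against 1.87, 3.01 and 7.82 in control 2a, control 2b and control outer 6. The groups were well apart, with a log2 fold change of 4.34 (SE 0.80, edgeR adjusted p = 0.0464). It was 4.57 in the libraries of number 2 and 3.69 in the others. No other gene of the 16 tested for prostaglandin and nitric oxide synthesis was called by edgeR, while 7 were higher and 1 lower at an unadjusted p under 0.05. PTGES, the synthase that makes prostaglandin E2, ran from 103 to 554 CPM against 209, 115 and 133 (log2 fold change 1.07, SE 0.45, edgeR adjusted p = 0.238). PTGIS, the prostacyclin synthase, went the other way, from 65.7 to 222 CPM against 357, 503 and 256 (log2 fold change -1.56, SE 0.36, edgeR adjusted p = 0.0579). NOS2, the inducible nitric oxide synthase, did not separate the groups, at 8.67 to 36.5 CPM against 54.4, 25.8 and 16.2 (edgeR adjusted p = 0.423). PTGR1, which inactivates prostaglandins and leukotriene B4, rose, from controls of 22.7 to 42.8 CPM to IL-1 libraries of 62.5 to 104 (log2 fold change 1.25, SE 0.25, edgeR adjusted p = 0.0476).

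None of the 19 cytokines tested was called by edgeR, although 9 were higher at an unadjusted p under 0.05, none was lower, and DESeq2 called 4 higher. The median log2 fold change was 1.403. LIF, a cytokine that signals through gp130, ran from 2.40 in IL-1 inner 3 over a median of 31.4 to 88.1 CPM in IL-1 inner 4, against 1.19, 1.27 and 2.54 in the controls (log2 fold change 4.29, SE 1.13, edgeR adjusted p = 0.0871), and IL-1 inner 3 lay just below control outer 6. IL11, of the same receptor family, ran from 1.94 to 62.4 CPM against 0.341, 1.16 and 1.94, just without overlap (edgeR adjusted p = 0.0888). IL18, which is released after inflammasome cleavage, ran from 58.2 to 198 CPM against 30.9, 17.0 and 66.3 (edgeR adjusted p = 0.152). CSF1, the macrophage growth factor, was at 40.2 to 159 CPM against 156, 72.3 and 131 (log2 fold change -0.51, edgeR adjusted p = 0.529).

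No gene of the signalling chain itself was called by edgeR. Of 20 IL-1 receptors and transducers, edgeR called none, 3 were higher and 3 lower at an unadjusted p under 0.05, and DESeq2 called 0 higher and 2 lower. The receptor IL1R1 was below every control in all 6 IL-1 libraries, at 32.9 to 54.2 CPM against 82.5, 141 and 68.0 (log2 fold change -1.16, SE 0.25, edgeR adjusted p = 0.0549). MYD88 was at 126 to 334 CPM against 171, 93.3 and 178 (edgeR adjusted p = 0.330), and IL6ST, the gp130 chain shared by receptors of this cytokine family, was at 256 to 422 CPM against 217, 217 and 240 (edgeR adjusted p = 0.226). Of 17 NF-κB subunits and feedback inhibitors, edgeR called none, 8 were higher and 1 lower at an unadjusted p under 0.05, and DESeq2 called 1 each way. RELA, a DNA-binding subunit, was at 150 to 194 CPM against 191, 165 and 150 (log2 fold change -0.01, SE 0.15, edgeR adjusted p = 0.980). BIRC3, an apoptosis inhibitor that NF-κB induces, was at 117 to 325 CPM against 124, 94.4 and 140 (log2 fold change 1.04, SE 0.37, edgeR adjusted p = 0.176).

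The other genes that rose do not form one pathway. FAM110C, a microtubule-associated protein, had the smallest p, at 9.10 to 19.1 CPM against 4.52 to 5.45 (log2 fold change 1.59, SE 0.24, edgeR adjusted p = 0.0397). BTG2, an antiproliferative gene, was at 53.2 to 81.8 CPM against 26.1 to 37.7 (log2 fold change 1.12, SE 0.19). F10, coagulation factor X, was at 4.18 to 19.1 CPM against 0.547 to 1.08 (log2 fold change 3.28, SE 0.58), and ADRA2A, an adrenergic receptor, at 1.17 to 6.36 against 0.085 to 0.251 (log2 fold change 4.11, SE 0.74).

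The lysosomal protease CTSH was the most abundant of the described genes that rose, at 287 to 420 CPM against 83.4 to 187 (log2 fold change 1.37, SE 0.26). ANGPTL4, an inhibitor of lipoprotein lipase, was at 26.1 to 56.4 CPM against 5.65 to 14.1 (log2 fold change 1.89, SE 0.36). PANX1, a membrane channel that releases ATP, RBM38, an RNA-binding p53 target, and CSRP2, a LIM protein, rose with log2 fold changes of 1.74, 2.03 and 1.48. EREG, the ErbB ligand epiregulin (log2 fold change 3.13, SE 0.65), and SEL1L3 (2.03, SE 0.41) completed the named genes that rose. EdgeR's adjusted p was between 0.0397 and 0.0483 for all genes of this and the preceding paragraph.

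**Figure D2:**
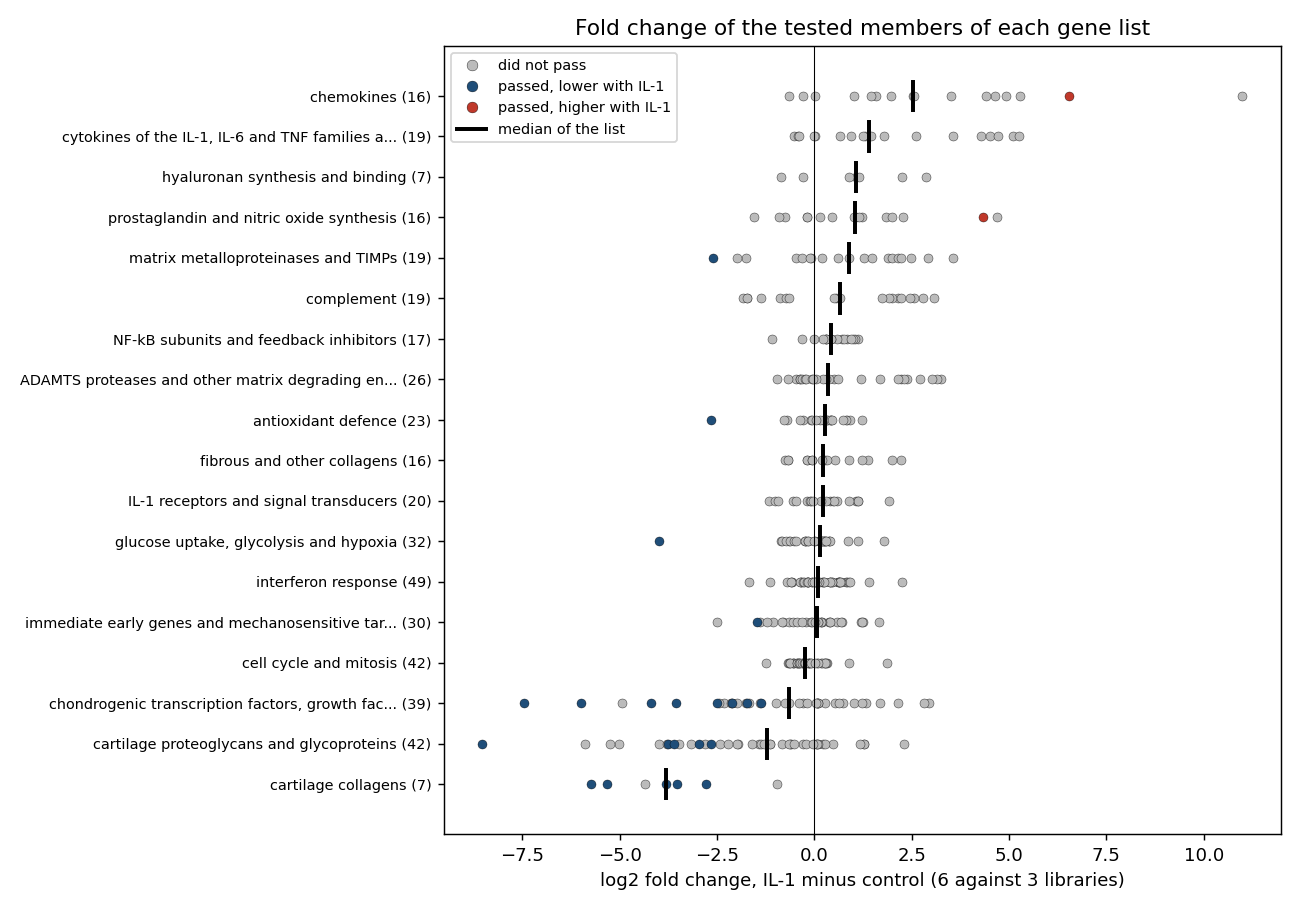
Log2 fold change, IL-1 minus control, of every tested member of 18 gene lists, with the number tested in brackets and a bar at each list's median; colour marks the genes that passed edgeR's test. Passing genes that were lower gather in the cartilage collagens, the cartilage glycoproteins and the chondrogenic factors. Of the other lists, medians ran from -0.242 (cell cycle) to 2.54 (chemokines). Cytokines, hyaluronan genes, and prostaglandin and nitric oxide synthesis had medians of 1.403, 1.08 and 1.05.

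Cartilage collagens fell. Of 7 tested, 5 were called lower by edgeR and all 7 had an unadjusted p under 0.05, with a median log2 fold change of -3.82. COL2A1, the chain of type II collagen, the main fibril of hyaline cartilage (chromosome 5, 78350131 to 78380893), ran from 45.8 CPM in IL-1 outer 1 over a median of 99.3 to 217 in IL-1 outer 2. The controls held 4057 CPM in control 2a, 9985 in control 2b and 415 in control outer 6. Every IL-1 library lay below every control, and the controls differed among themselves more than the IL-1 libraries did. The log2 fold change was -5.34 (SE 0.81, edgeR adjusted p = 0.0397), with -5.38 in the libraries of number 2 and -2.12 in the others.

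COL9A1, a chain of the type IX collagen that coats type II fibrils, was at 0 to 1.41 CPM against 22.9, 66.7 and 2.09 (log2 fold change -5.72, SE 1.01, edgeR adjusted p = 0.0429). COL9A3 was at 6.12 to 28.8 CPM against 204, 274 and 22.2, so that IL-1 inner 3 lay above control outer 6 (log2 fold change -3.82, SE 0.69, edgeR adjusted p = 0.0464). COL11A1, a chain of the type XI collagen in the core of the fibrils, was at 24.5 to 154 CPM against 441, 691 and 174 (log2 fold change -2.77, SE 0.55, edgeR adjusted p = 0.0476). COL11A2, chosen after its values were seen, was at 21.1 to 116 CPM against 591, 926 and 59.8, with IL-1 inner 2 above control outer 6 (log2 fold change -3.54, SE 0.71, edgeR adjusted p = 0.0476). COL27A1 was at 13.4 to 34.2 CPM against 61.4, 61.3 and 30.5 (edgeR adjusted p = 0.120). COL10A1, the marker of hypertrophic chondrocytes, was close to absent, at most 0.582 CPM in any library.

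The collagens of fibrous tissue gave no call. Of 16 tested, edgeR and DESeq2 called none and none had an unadjusted p under 0.05. COL3A1 was at 1492 to 3247 CPM against 4009, 4635 and 2634 (log2 fold change -0.68, SE 0.32, edgeR adjusted p = 0.287). COL6A3, a pericellular collagen chain, was at 763 to 7699 CPM against 4656, 3973 and 4576 (edgeR adjusted p = 0.879). COL1A1 differed more between controls than between groups, at 174 CPM in control 2a, 5.13 in control 2b and 1493 in control outer 6, against 377 to 1634 with IL-1 (edgeR adjusted p = 0.690).

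Of 42 cartilage proteoglycans and glycoproteins, 5 were called lower by edgeR and none higher, while 20 were lower and 3 higher at an unadjusted p under 0.05. The median log2 fold change was -1.21. MATN1, matrilin-1, a cartilage glycoprotein (chromosome 6, 87342030 to 87351483), ran from 0 in IL-1 outer 5 over a median of 0.056 to 1.104 CPM in IL-1 outer 2, against 117, 204 and 1.26 in control 2a, control 2b and control outer 6. It was abundant in the controls of number 2 alone. Its log2 fold change was -8.53 (SE 1.36, edgeR adjusted p = 0.0397), with -8.12 in the libraries of number 2 and -3.03 in the others.

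ACAN, aggrecan, the large proteoglycan that gives cartilage its swelling pressure (chromosome 7, 54449830 to 54520606), ran from 512 CPM in IL-1 inner 4 over a median of 688 to 1578 in IL-1 inner 3, against 6152, 8928 and 2066. The groups did not overlap, with a log2 fold change of -2.64 (SE 0.51, edgeR adjusted p = 0.0469), and it was -2.74 in the libraries of number 2 and -1.34 in the others. HAPLN1, the link protein that fixes aggrecan to hyaluronan, was at 177 to 623 CPM against 2340, 4489 and 614 (log2 fold change -2.97, SE 0.55, edgeR adjusted p = 0.0464), with IL-1 outer 2 just above control outer 6. CILP, the cartilage intermediate layer protein, was at 19.4 to 65.9 CPM against 276, 1199 and 101 (log2 fold change -3.76, SE 0.64, edgeR adjusted p = 0.0408). CHADL, chosen after its values were seen as the fifth member called, was at 0.599 to 1.08 CPM against 12.7, 22.1 and 0.503, so that control outer 6 lay below every IL-1 library. COMP, an abundant meniscus glycoprotein, was at 1705 to 6246 CPM against 9162, 13853 and 5417 (log2 fold change -1.13, SE 0.48, edgeR adjusted p = 0.242). FN1, fibronectin, was at 3299 to 16940 CPM against 27619, 21338 and 8309 (edgeR adjusted p = 0.279).

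**Figure D3:**
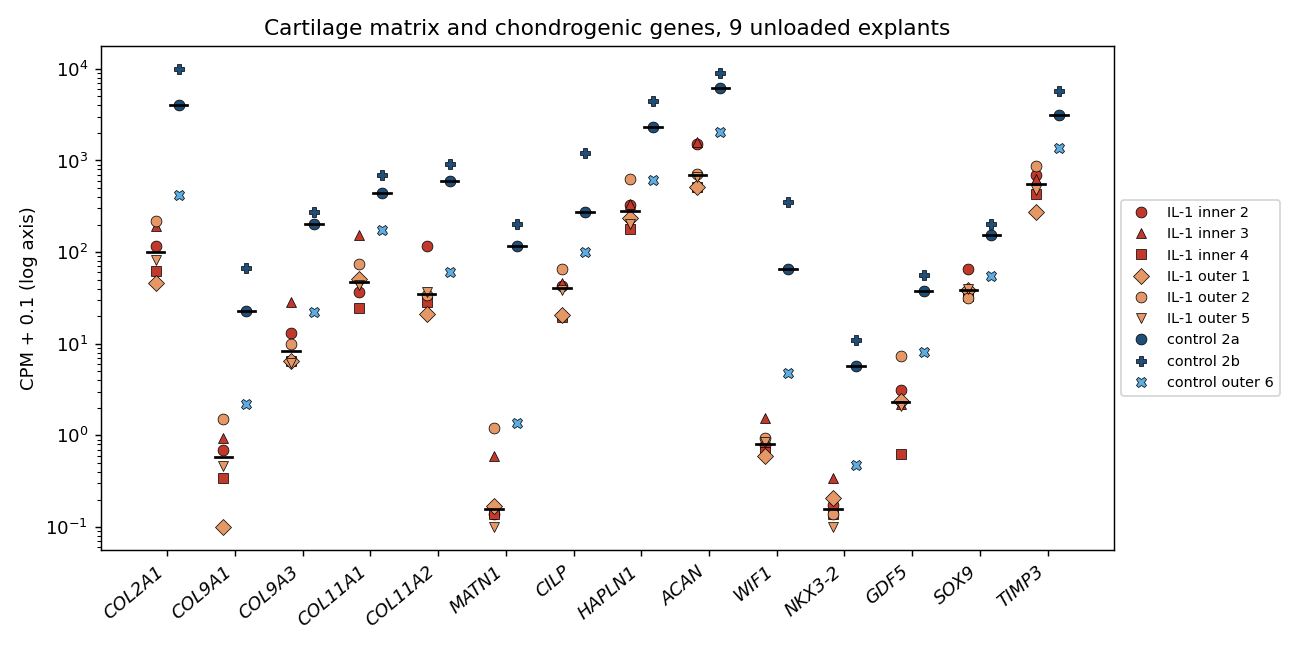
Level of 14 cartilage matrix and chondrogenic genes in each of the 9 libraries, in CPM with 0.1 added, on a log axis; each symbol is 1 library and the bars are group medians (6 IL-1, 3 control). Control 2a and control 2b are highest for all 14 genes, and control outer 6 lies between them and the IL-1 libraries or among these.

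Some of the factors that set the chondrocyte phenotype were lower. Of 39 chondrogenic transcription factors, growth factors and Wnt inhibitors, 8 were called lower by edgeR and none higher, while 18 were lower and 4 higher at an unadjusted p under 0.05. WIF1, a secreted inhibitor of Wnt ligands (chromosome 5, 29450442 to 29543913), ran from 0.503 over a median of 0.716 to 1.45 CPM, against 65.8, 349 and 4.72. The log2 fold change was -7.44 (SE 0.98, edgeR adjusted p = 0.0397), with -8.08 in the libraries of number 2 and -2.52 in the others. FRZB, another Wnt inhibitor, was at 4.10 to 30.0 CPM against 161, 440 and 20.9, so that the groups overlapped (log2 fold change -4.19, SE 0.84, edgeR adjusted p = 0.0476). Other Wnt inhibitors of the list were not called by edgeR. Medians with IL-1 were lower for SFRP1, SFRP5 and DKK1, and higher for SFRP2, SFRP4 and DKK3.

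NKX3-2, a repressor needed for chondrocyte identity, was at 0 to 0.247 CPM against 5.62, 10.8 and 0.377 (log2 fold change -5.98, SE 0.99, edgeR adjusted p = 0.0406). GDF5, a joint-forming ligand of the BMP family, was at 0.523 to 7.31 CPM against 38.0, 55.6 and 7.97 (log2 fold change -3.55, SE 0.68, edgeR adjusted p = 0.0469). SOX6, which works with SOX9 on cartilage matrix genes, was at 5.64 to 8.69 CPM against 13.4, 24.7 and 13.0 (log2 fold change -1.36, SE 0.24, edgeR adjusted p = 0.0464). SOX9 itself was at 31.4 to 65.1 CPM against 152, 201 and 54.1 (log2 fold change -1.72, SE 0.35, edgeR adjusted p = 0.0478), with IL-1 inner 2 above control outer 6. The receptors FGFR3 and PTH1R, which regulate growth plate chondrocytes, fell by 2.12 and 2.49 on the log2 scale without overlap. FRZB, SOX9, FGFR3 and PTH1R lay outside the rule for named genes. FGFR1 and IGFBP5, the most abundant members not called, had log2 fold changes of 0.07 and 0.11 (edgeR adjusted p = 0.900 and 0.933).

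Among the proteases and their inhibitors, TIMP3, the tissue inhibitor that also blocks aggrecanases (chromosome 5, 12185816 to 12242599), fell. It ran from 277 CPM in IL-1 outer 1 over a median of 552 to 879 in IL-1 outer 2, against 3116, 5791 and 1362, without overlap (log2 fold change -2.60, SE 0.44, edgeR adjusted p = 0.0406). It was the only one of 19 matrix metalloproteinases and TIMPs that edgeR called. Stromelysin MMP3 was at 1420 to 10837 CPM against 2360, 652 and 1285 (log2 fold change 1.99, SE 0.74, edgeR adjusted p = 0.188). Collagenase MMP13 was at 681 to 7034 CPM against 1239, 314 and 1052 (log2 fold change 1.90, SE 0.70, edgeR adjusted p = 0.188). IL-1 outer 2 lay among the controls for both, and IL-1 inner 3 for MMP3.

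Of 26 ADAMTS and other matrix-degrading enzymes, edgeR called none, 7 were higher and 2 lower at an unadjusted p under 0.05, and DESeq2 called 6 higher. ADAMTS1 did not overlap between the groups, at 209 CPM in IL-1 outer 2 to 1082 in IL-1 outer 1 against 41.6, 24.9 and 178 (log2 fold change 3.27, SE 0.74, edgeR adjusted p = 0.0576). The aggrecanase ADAMTS5 was at 91.03 to 969 CPM against 66.6, 28.3 and 116, with IL-1 outer 2 below control outer 6 (log2 fold change 3.14, SE 0.84, edgeR adjusted p = 0.0888). Both were chosen after their values were seen. CEMIP, a hyaluronan-degrading protein, was at 126 to 3154 CPM against 230, 131 and 399 (edgeR adjusted p = 0.202). HTRA1, a secreted serine protease, had a log2 fold change of 0.05 (SE 0.36, edgeR adjusted p = 0.952).

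The remaining genes with the smallest p that fell had low or moderate levels. NFATC2, a transcription factor activated by calcineurin, was at 5.64 to 8.88 CPM against 26.7, 21.1 and 15.6 (log2 fold change -1.47, SE 0.22, edgeR adjusted p = 0.0397), the only call among 30 immediate early and mechanosensitive genes. IER3 of that list, an apoptosis regulator, was at 421 to 864 CPM against 277, 183 and 254, without overlap (edgeR adjusted p = 0.0614), and FOSL2, an AP-1 subunit, at 473 to 656 against 462, 313 and 476 (edgeR adjusted p = 0.303). SLC1A4, an amino acid transporter (log2 fold change -1.30), ZNF385D (-2.34), NPTX2, a neuronal pentraxin (-2.29), KIAA0040 (-1.59), and SEC16B, which works at endoplasmic reticulum exit sites (-1.77), fell without overlap.

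LAMB3, a laminin chain, was at 0.216 to 0.903 CPM against 17.6, 40.8 and 1.71 (log2 fold change -4.99). MRAP2, an accessory protein of melanocortin receptors, was at 0 to 0.305 CPM against 10.8, 21.9 and 0.980 (log2 fold change -6.13). The somatostatin receptor SSTR5 was at 0 in 5 of the 6 IL-1 libraries and at 1.32, 3.32 and 0.352 CPM in the controls. EdgeR's adjusted p was 0.0397 for each called gene of this and the preceding paragraph.

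Single members fell in 2 further lists. GPX3, a secreted glutathione peroxidase, was at 43.0 to 197 CPM against 978, 1085 and 313 (log2 fold change -2.64, SE 0.52, edgeR adjusted p = 0.0476), 1 of 23 antioxidant genes. The mitochondrial superoxide dismutase SOD2 was at 6248 to 25730 CPM against 9868, 4902 and 8340, with overlap (log2 fold change 1.22, SE 0.49, edgeR adjusted p = 0.222), and the secreted SOD3 at 1135 to 2281 against 3573, 2742 and 2154 (edgeR adjusted p = 0.227). SLC2A4, the insulin-responsive glucose transporter, was at 0.108 to 0.452 CPM against 5.07, 10.2 and 0.653 (log2 fold change -3.99, SE 0.68, edgeR adjusted p = 0.0406), 1 of 32 genes of glucose uptake, glycolysis and hypoxia. GAPDH and PKM of the same list had log2 fold changes of 0.17 and 0.12 (edgeR adjusted p = 0.765 and 0.844). EdgeR called none of 19 complement genes (3 higher and 4 lower unadjusted, 2 each way by DESeq2), none of 49 interferon response genes (4 and 1 unadjusted, 0 and 1 by DESeq2), none of 42 cell cycle genes (2 and 2 unadjusted, none by DESeq2) and none of 7 hyaluronan genes (2 and 0 unadjusted, 1 higher by DESeq2). Abundant members of these lists that were not called included CLU and C1S (log2 fold change -0.88 and 0.56), STAT3 (0.65), CCND3 and CDKN1B (0.18 and -0.67), and CD44 and TMEM2 (0.88 and 1.15).

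**Figure D4:**
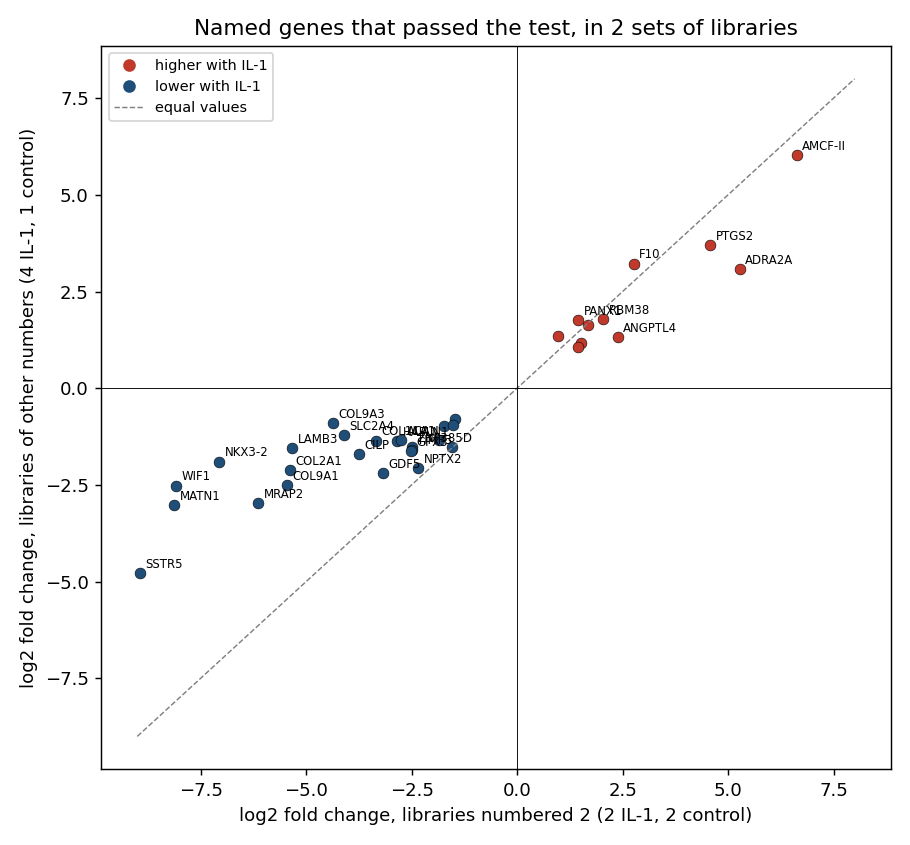
Log2 fold change of the 35 named genes that passed the test, in the libraries of number 2 (x axis, 2 IL-1 and 2 control) and in the libraries of other numbers (y axis, 4 IL-1 and 1 control); the dashed line marks equal values and crowded genes carry no label. Most genes that rose, such as AMCF-II (6.63 and 6.03), lie near the line, ADRA2A (5.27 and 3.08) does not, while cartilage genes such as COL2A1 (-5.38 and -2.12) fell by less in the libraries of other numbers.

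The libraries of number 2 and those of the other numbers share no library, but both entered the test that chose these genes. The 190 called genes all had the same direction in the libraries of number 2, and 180 of the 181 that could be fitted did so in the others. The size of the fall was not the same. Of the 175 genes that fell, control outer 6 was below both control 2a and control 2b for 170. By the titles, 1 of control 2a and control 2b was of the outer zone too. For these genes control outer 6 was therefore below a control of its own zone. Whether the gap follows the animal or the make-up of the tissue cannot be told apart with 1 control outside number 2. The part of zone was not tested.

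Markers of other cells differed between libraries within each group. The summed level of 9 blood endothelial markers ran from 13.0 CPM in IL-1 inner 2 to 1138 in IL-1 outer 5, and was 18.5 in control 2a, 11.7 in control 2b and 223 in control outer 6 (two-sided exact permutation p = 0.357). All 9 had a positive log2 fold change, with a median of 2.10, but edgeR and DESeq2 called none and none had an unadjusted p under 0.05. VWF and TEK were at 0 in control 2a and control 2b. PECAM1 was at 8.81 to 452 CPM with IL-1 against 8.86, 3.42 and 85.6.

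Macrophage and myeloid markers (15 genes) summed to 102 to 551 CPM with IL-1 and to 120 to 193 in controls (exact permutation p = 0.310), with 14 of the 15 positive. Much of the control sum was LYZ and CD14. LYZ went the other way, at 2.69 to 13.2 CPM with IL-1 against 7.16 to 93.6. CD14 was at 50.5 to 143 CPM against 44.6 to 58.8. The list's median log2 fold change was 1.53. At an unadjusted p under 0.05, 2 were higher and 1 lower, and DESeq2 called 0 higher and 1 lower. AIF1, TYROBP and FCER1G were at 0 in control 2a and control 2b. Chondrocyte and fibrochondrocyte markers (11 genes) summed to 12749 to 25596 CPM with IL-1 and to 24451 to 51583 in controls. The exact permutation p was 0.0476, or 0.124 after adjustment over the 13 single values tested. The smallest p that 6 against 3 allows is 0.0238. Members of this list include ACAN, COL2A1, HAPLN1 and SOX9, called lower above, so the sum is no separate evidence. At an unadjusted p under 0.05, 6 of the 11 were lower and 0 higher, and the largest log2 fold change was 0.904. Lymphatic markers summed to 137 to 490 CPM against 59.5 to 168 (exact permutation p = 0.0476, adjusted 0.124), most of it PDPN, which other cells also express and which was at 137 to 490 CPM against 124, 59.0 and 166, with CCL21 and MMRN1 at 0 in all controls and at 52.6 and 52.8 CPM in IL-1 outer 5. Smooth muscle and pericyte markers summed to 617 to 1504 CPM against 1312 to 2234. Nerve markers (3 genes tested of 6 listed) summed to 9.18 to 17.5 CPM against 16.1 to 28.0. The exact permutation p was 0.0476 and adjusted 0.124 for each. Most of the nerve sum was PRX, at 7.27 to 13.5 CPM against 13.0 to 25.4. MBP reached 7.72 CPM with IL-1 and 4.39 in controls, and the largest log2 fold change of the nerve list was 0.295. The nerve sum therefore describes mainly PRX. The smooth muscle sum followed abundant members such as CSPG4, the only one called by edgeR (lower), while DESeq2 called 1 higher and 4 lower. SYNM (55.8 to 165 CPM against 266 to 301) and SYNPO2 (40.6 to 106 against 133 to 234) also lay below all controls. The list's median log2 fold change was nevertheless 0.53. CNN1 and DES, both at low levels, were at 0 in control 2a and control 2b. DES was at 0.553 CPM in control outer 6, against at most 0.272 with IL-1. T, B and NK cell, adipocyte, synovial and skeletal muscle lists had p between 0.0952 and 0.810, and CD3E was at 0 in 8 of the 9 libraries.

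The neutrophil list (4 genes, among them S100A8 and S100A9, which other cells also express) summed to 62.3 to 471 CPM with IL-1 and to 24.1 to 85.6 in controls (exact permutation p = 0.0714, adjusted 0.155). S100A8, S100A9 and S100A12 were higher at an unadjusted p under 0.05 and by DESeq2, edgeR called none, the median log2 fold change was 2.18, and CSF3R, the remaining gene, was at 0 in 3 libraries. The part of these markers in the results above was not tested. In bulk tissue, fewer cells of a type and less RNA per cell cannot be told apart. The share of counts in the most abundant gene (ENSSSCG00000037358) was 8.74 to 19.2% with IL-1 and 3.74 to 9.10% in controls (exact permutation p = 0.0476, adjusted 0.124).

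**Figure D5:**
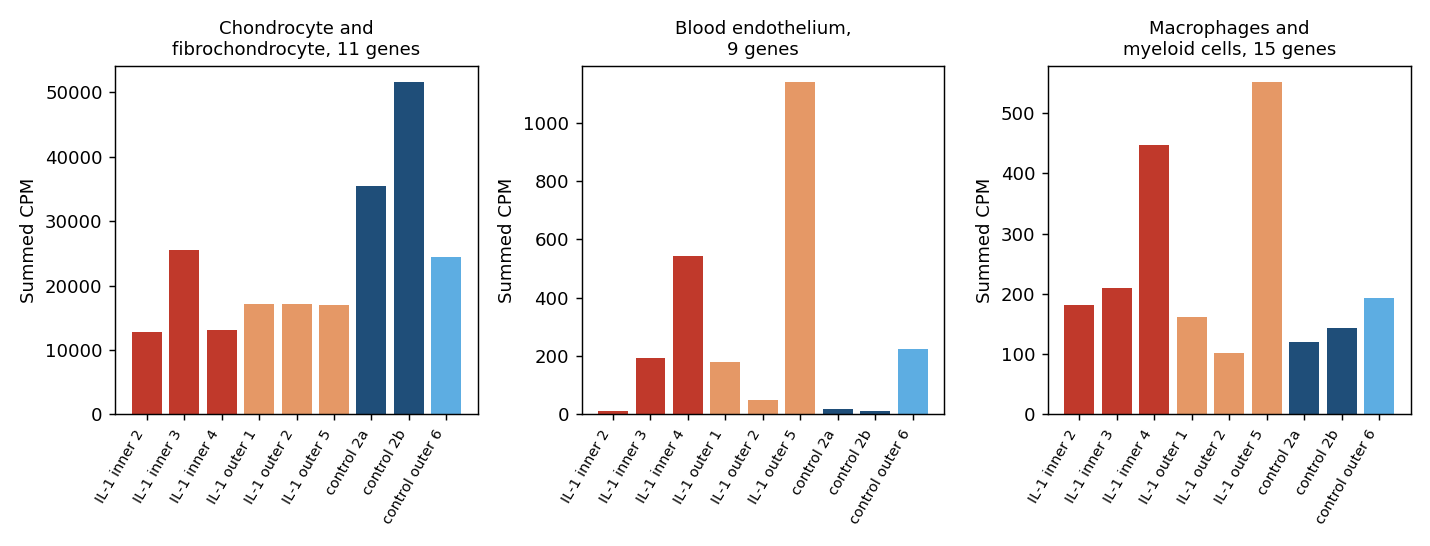
Summed level in CPM of 3 marker lists in each of the 9 libraries (bars, from 0; red and orange, IL-1 inner and outer; dark and light blue, controls of number 2 and control outer 6). Chondrocyte markers are highest in control 2a and control 2b, at 35505 and 51583, while endothelial markers are highest in IL-1 outer 5, at 1138.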

How the data were processed

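RNA of 24 porcine meniscus explants (8 conditions, 3 each) was sequenced as stranded mRNA libraries. Adapters were removed by the authors (Trim Galore, cutadapt, by the submitters' notes), STAR aligned the reads to the Sscrofa11.1 genome, reads with a single location were kept, and HTSeq gave the deposited counts, whole reads per gene. Tool versions: not given in the sources used here. A deposited table of normalized values was not used. Of 24 library columns, 15 were not used: some were placed by name as loaded explants, and the names of the rest do not fix 1 condition. The mapping of the other 9 was deduced from names and titles.

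Genes with at least 10 reads in any library were kept, as in the study (13840 of 25880), and tested with edgeR 4.0.16 in R 4.3.3 with TMM scaling and IL-1 as the only term. Alternatives used DESeq2 1.42.0 and limma 3.58.1, a replicate block, zone terms, other filters and left-out libraries. SE is the log2 fold change divided by the root of F. The test was checked on simulated counts of independent libraries. These held no shared number, no zone and no control unlike the others, so the check does not cover such features. The study states that no treatment group held 2 explants of 1 meniscus, without saying whether zones count as groups; p-values measure the spread between these explants. The groups share only number 2. The deviations of its IL-1 libraries from their group mean had correlations of 0.18 to 0.36 with those of its controls. Across the groups, libraries of different numbers reached 0.44 (IL-1 outer 5 with control outer 6). Within a group, the pairs of number 2 gave -0.01 (IL-1) and 0.09 (control). Deviations from the mean of a small group lean to negative correlations, so values near 0 do not show unrelated libraries. The other control pairs gave -0.63 and -0.83, and the other IL-1 pairs -0.62 to 0.54. On log2 CPM itself, control 2a and control 2b correlated at 0.975, against 0.938 and 0.911 with control outer 6. IL-1 inner 2 and IL-1 outer 2 correlated at 0.946, within the 0.907 to 0.98 of the other IL-1 pairs. Number 2 alone gives no set of 3 pairs, so the numbers were not taken to pair the samples. Single values were compared by two-sided exact permutation in scipy 1.17.1.

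The members, lists and tests were chosen with earlier results of these data known. Named genes were the 10 with the smallest p in each direction and, per list, up to 4 called each way and the 2 most abundant not called; others are said to be chosen after their values were seen, which holds also for LIF, IL11, NOS2, PTGR1, EREG, SEL1L3, IL1R1, COL1A1 and the markers named. IL6 and 1 further gene that the rule names are not reported here. Of 8256 rows without a name in the table, 1056 were named from a reference table. Listed genes that the table does not name were not analysed here.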

Additional observations from a re-analysis of the deposited data

Results flagged for a closer look

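Within the 6 IL-1 libraries, 84 values (the named genes and the single values) were examined for 1 library far from the other 5, and 11 had one. For values with a normal distribution, chance gives about 1 in 20. CPM values need not have one, and in all 11 the library apart was the highest. For SSTR5 and COL10A1 the other 5 were at 0, so any read at all gave a flag. Controls, with 3 libraries, were not examined.

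IL-1 inner 3 stood apart for 5 of them. Its chondrocyte marker sum was 25596 CPM (12749 to 17092 in the others), its CLU level 19019 CPM (5669 to 8865), its TMEM2 level 364 CPM (81.4 to 154), its COL9A3 level 28.8 CPM (6.12 to 13.1) and its WIF1 level 1.45 CPM (0.503 to 0.838). IL-1 outer 2 was highest for HAPLN1, at 623 CPM (177 to 332), and for GDF5, at 7.31 CPM (0.523 to 3.05). Both libraries also had the lowest AMCF-II, CXCL8 and PTGS2 levels of the IL-1 group.

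IL-1 outer 1 had 19.1 CPM of F10 (4.18 to 9.08 in the others) and was the only IL-1 library with SSTR5 reads, at 0.036 CPM. IL-1 inner 2 had 6.36 CPM of ADRA2A (1.17 to 2.63) and was the only one with COL10A1 reads, at 0.038 CPM.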

How the results depend on the processing

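The counts of 15 higher and 175 lower genes moved little with DESeq2's size factors (14 and 161), other filters (14 and 159, or 16 and 199) or without the most abundant gene (14 and 158). DESeq2's Wald test gave 242 and 574, among them 15 and 173 of those called by edgeR. Leaving out 1 library gave 0 to 322 higher and 0 to 633 lower: 322 and 633 without control outer 6, 77 and 340 without IL-1 outer 2, 8 and 60 without IL-1 inner 3, and 0 and 0 without any 1 of the others. With the replicate number as a block, edgeR called 0 and 0 (1812 genes at an unadjusted p under 0.05), and limma voom with the number as a random block also called 0 and 0 (2671). The same held for libraries of 1 number summed (0 and 0, 1900 unadjusted), for a zone term in libraries of known zone (0 and 0, 205) and for the outer zone alone (0 and 0, 179), fits with fewer libraries. Chosen after seeing the data, a zone term gave 0 and 0 with control 2a taken as inner and 3 and 62 with control 2b taken as inner, and the libraries of number 2 alone or of other numbers alone gave 0 and 0. The cause of these shifts was not tested. Directions of the called genes were kept except for 2 of 181 with the known-zone term, 3 of 181 in the outer zone alone and 1 of 181 in the libraries of other numbers. The difference between zones and the inner zone alone were not fitted, since the inner control is not known by name. Every library held at least 24440213 counts. With 3 controls, of which 2 share a number, the spread of the controls is poorly known.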
